A study of Rattus norvegicus with 4 samples.

Results

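Bdnf, Ntf3, Ntrk2, Ntrk3, Ngfr and Sort1 were followed across the nuclei of rat orbitofrontal cortex: 2 neurotrophins, their receptors TrkB (Ntrk2) and TrkC (Ntrk3), the shared receptor p75 (Ngfr) and the sorting receptor sortilin (Sort1). The genes were taken by symbol, each symbol stood on 1 row, and they are 6 of the 25399 genes in the count tables. The animals were male Sprague-Dawley rats, 8 weeks old and wild-type per the labels, and carried no transgene that the labels name. The METH group was given methamphetamine, which makes nerve terminals release dopamine and other monoamines, at 1 mg/kg into the peritoneum over 7 days, and the saline group was given saline over the same 7 days. The orbitofrontal cortex of 4 animals per group was taken, and the title of the series places them in a model of sensitization. Each group was sequenced as 2 libraries. The labels do not tie animals to libraries, so each p-value reflects the spread between libraries only, which may be technical.

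Neurotrophins are secreted growth factors made as longer precursors. BDNF acts through TrkB and NT-3, the product of Ntf3, mainly through TrkC; both receptors are tyrosine kinases that signal through the MAP kinase, PI3 kinase and phospholipase C branches. p75 binds all neurotrophins and, with sortilin, their uncut precursors, and sortilin also sorts proBDNF inside the cell. In cortex BDNF is made by excitatory neurons under the control of activity, and astrocytes carry a truncated TrkB that lacks the kinase. Counts per gene do not separate the truncated from the full-length receptor.

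After filtering, 39127 nuclei remained, 7602 to 14645 per library, with median depths of 1963 to 3521 UMIs (unique molecular identifiers, each counting 1 captured transcript). Saline replicate 1 stood apart, with the most nuclei, the lowest depth and 1683 of the 2102 nuclei whose markers gave no name. Libraries shared 20 to 47 barcodes per pair, 0.263% to 0.526% of the smaller library. The labels call the samples brain cells, and by their markers 19184 nuclei were excitatory and 4463 inhibitory neurons, the rest mostly glia. Nuclei were named from marker genes and are called "-like": layer 2/3 and layer 4/5 intratelencephalic (L2/3 IT, L4/5 IT), layer 5 extratelencephalic (L5 ET), layer 5/6 near-projecting (L5/6 NP) and layer 6 corticothalamic (L6 CT) excitatory neurons, Pvalb and Sst interneurons and the glial and vascular types. Of the excitatory clusters 3 met no subtype and are called by their leading genes, Galnt14/Adamts3, Hgf/Col8a1 and Il1rapl2/Scube1, as is an interneuron cluster led by Adarb2 and Pde11a that also holds Vip. The marker score for L4/5 IT was 0.49 in the L4/5 IT-like cluster, the lowest among the named neuron subtypes. It was 0.82 in the Hgf/Col8a1 cluster, which had no L4/5 IT marker among its 10 leading genes. Levels are CPM, the UMIs of a gene per 1000000 UMIs of that type in that library. Because the types come from the same nuclei, differences in level between types are described without a test.

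A rat gene such as Bdnf starts at several promoters that share the coding exon, and the 3' counts sum over all of them. RefSeq (GRCr8) gave 6 promoter windows for Bdnf, 3 for Ntf3 and 1 for Sort1. The 250 bases before a start were searched for TGACG, the core of the cAMP response element, on both strands, and 18.2% of all 33469 windows held it. Of the 6 Bdnf windows 1 held it, at position −35 from the start, and none of the Ntf3 or Sort1 windows did. That window and the first Bdnf window are shown because transcripts from both enter the same Bdnf count; capitals mark the match, here read on the other strand.
Bdnf chr3:116619383-116619632 (+): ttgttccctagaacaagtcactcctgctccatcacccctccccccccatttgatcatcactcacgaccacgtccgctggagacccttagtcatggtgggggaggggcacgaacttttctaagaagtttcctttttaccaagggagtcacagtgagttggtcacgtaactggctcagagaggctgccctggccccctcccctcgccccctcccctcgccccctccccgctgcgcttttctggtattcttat
Bdnf chr3:116637608-116637857 (+): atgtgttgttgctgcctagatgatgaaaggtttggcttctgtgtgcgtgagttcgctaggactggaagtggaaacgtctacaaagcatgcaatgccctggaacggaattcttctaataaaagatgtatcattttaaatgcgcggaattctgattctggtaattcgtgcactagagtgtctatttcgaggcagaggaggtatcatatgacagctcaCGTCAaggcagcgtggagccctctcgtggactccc

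Bdnf was highest in excitatory neurons and differed widely among their groups. In the Galnt14/Adamts3 cluster it reached 97.1 and 110.2 CPM in METH replicates 1 and 2 and 128 and 96.8 CPM in saline replicates 1 and 2, a mean of 108 ± 14.6 (SD, n = 4). All 4 values lay above those of every other excitatory group in this clustering. The cluster was found again at resolution 2 (107 CPM) and with at least 1000 genes per nucleus (99.8 CPM). In the other clusterings it did not stand apart. With doublets kept, Galnt14, Adamts3, Il1rapl2 and Scube1 were among the leading genes of a single cluster of 4057 nuclei. That cluster got no name and was left out of the levels, and Bdnf was highest in the Hgf/Col8a1 cluster (67.7 CPM) among the groups ranked. With the 6 genes added to the clustering, the same genes led a single cluster of 4124 nuclei. It was counted as the Il1rapl2/Scube1 cluster, where Bdnf was highest (76.3 CPM). The Hgf/Col8a1 cluster followed at 66.9 ± 1.36, L2/3 IT-like neurons at 59.1 ± 10.1, L4/5 IT-like at 55.0 ± 7.17, the Il1rapl2/Scube1 cluster at 47.5 ± 1.98 and L5 ET-like at 37.5 ± 7.12 CPM, each overlapping its neighbour in this order. L6 CT-like neurons had 13.7 ± 2.86 CPM and L5/6 NP-like neurons 9.66 ± 5.99 CPM. The Galnt14/Adamts3 cluster thus held 7.91 times the level of L6 CT-like and 11.2 times that of L5/6 NP-like neurons, with no overlap between libraries. Interneurons held little Bdnf: 2.30 ± 1.85 CPM in Pvalb-like, 3.44 ± 1.61 in the Adarb2/Pde11a cluster and 4.08 ± 2.06 in Sst-like neurons.

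As a share of nuclei, 16.5% of excitatory nuclei had a Bdnf UMI (exact Clopper-Pearson 95% interval 16.0 to 17.0, counting error only), against 1.08% of inhibitory nuclei (0.794 to 1.42), 0.852% of OPC-like and 0.824% of Pvalb-like nuclei. Median depths over libraries were 2772 to 6589.5 UMIs in excitatory, 1835.5 to 4081.5 in inhibitory and 952 to 1685.5 in OPC-like (oligodendrocyte precursor) nuclei. Over libraries the excitatory share ran from 12.3% in saline replicate 1 to 21.8% in METH replicate 2, wider than the interval. Thinned to 1000 UMIs per nucleus, the shares were 4.67% of excitatory and 0.351% of inhibitory nuclei. Astrocyte-like, oligodendrocyte-like and OPC-like nuclei held 5.89 to 7.78 CPM, or 10.7% to 14.1% of the excitatory level, while 5 excitatory neuron markers stood there at shares from 4.33% (Camk2a in astrocyte-like) to 28.0% (Nrgn in oligodendrocyte-like nuclei) of their excitatory level. Bdnf lay within the range of these markers, which glia should lack; the part of neuronal RNA in its glial level was not tested. Microglia-like nuclei held 12.6 ± 11.2 CPM from 16 UMIs, a share of the excitatory level within the 7.51% to 36.5% of these markers there.

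Ntf3 was concentrated in L2/3 IT-like neurons. It reached 39.8 and 45.4 CPM under METH and 45.2 and 49.2 CPM under saline, a mean of 44.9 ± 3.87, from 1223 of the 1455 Ntf3 UMIs in all nuclei. The adjoining L4/5 IT-like neurons had 0.347 ± 0.281 CPM from 4 UMIs, a ratio of 129. In the other excitatory groups the mean was 2.71 CPM or lower, and L5/6 NP-like neurons had 0 UMIs in 831 nuclei, which allows up to 0.361% of nuclei with a UMI (3 counts over the number of nuclei, as for every 0 given here). Pvalb-like interneurons were the other neuronal site, with 13.6 and 13.8 CPM under METH and 13.2 and 8.20 under saline. All 4 of these values lay above those of Sst-like neurons, which had 1 UMI, and of the Adarb2/Pde11a cluster at 3.07 ± 0.909 CPM. Microglia-like nuclei had 0 UMIs in 1721 nuclei, which allows up to 0.174%.

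A few Ntf3 UMIs came from vascular nuclei. Endothelial-like nuclei held 16 UMIs, at 0 CPM in METH replicate 1, 29.1 in METH replicate 2 and 31.9 and 44.7 in saline. That is 206% of the mean excitatory level, while Camk2a, Slc17a7, Neurod6 and Nrgn, markers of excitatory neurons, stood at 40.7% to 71.3% of theirs in the same nuclei and Slc17a6, a second transporter, at 167%. Pericyte and smooth muscle-like nuclei held 11 Ntf3 UMIs and fibroblast-like nuclei 13, both with 0 in METH replicate 1. In endothelial-like nuclei Bdnf, Ntrk2 and Ntrk3 stood at 45.7% to 66.3% of their excitatory level. The part of neuronal RNA in the values of these genes in any vascular type was not tested.

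**Figure D1:**
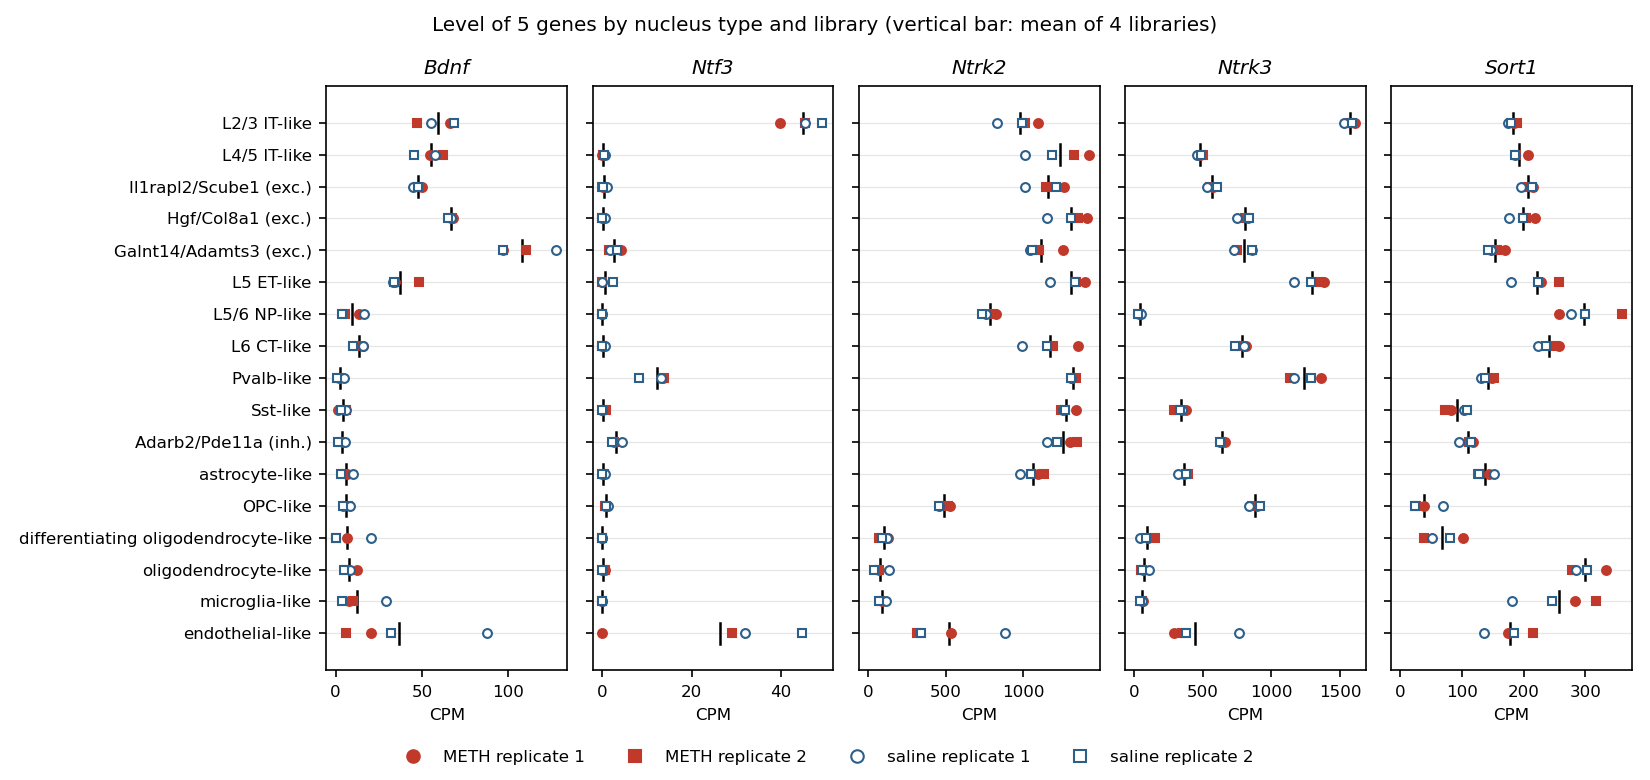
CPM (linear x axes) of Bdnf, Ntf3, Ntrk2, Ntrk3 and Sort1 in 17 nucleus types (rows); each point is 1 library and the vertical bar is the mean of 4 libraries. Bdnf is highest in the Galnt14/Adamts3 cluster, Ntf3 in L2/3 IT-like neurons, and Ntrk3 is near 0 in L5/6 NP-like neurons.

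At a finer clustering (Leiden resolution 2) the L2/3 IT-like neurons fell into 2 clusters in which the ligands ran in opposite directions. In the 2943 nuclei led by Glis3 and Otof, Ntf3 stood at 66.5 ± 5.04 CPM and Bdnf at 32.1 ± 7.01. In the 1773 nuclei led by Cd200r1 and Pde7b, with Cux2, Ntf3 stood at 15.3 ± 1.09 and Bdnf at 95.7 ± 13.7 CPM. Ntf3 was thus 4.34 times higher in the Glis3/Otof cluster and Bdnf 2.98 times higher in the Cd200r1/Pde7b cluster, each in 4 of 4 libraries and with no overlap. The receptors differed less: Ntrk3 was 1.13 times higher in the first cluster and Ntrk2 1.37 times higher in the second, also without overlap, and Sort1 overlapped at 178 and 185 CPM. These clusters were drawn on the same nuclei, so the contrast is a description.

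**Figure D2:**
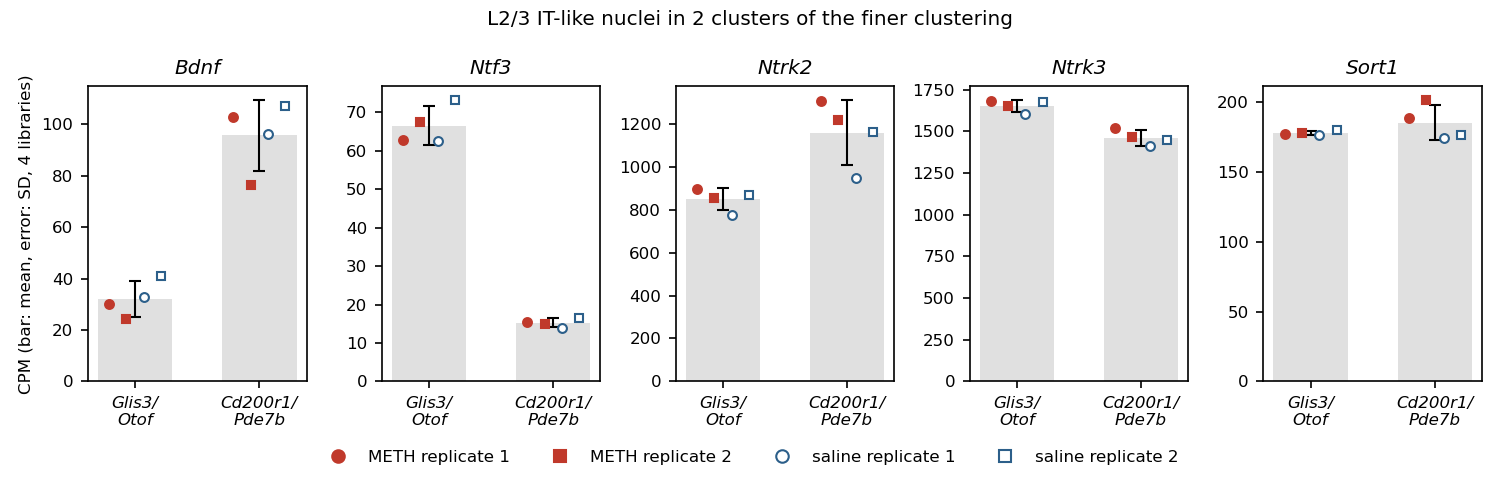
CPM of the 5 genes (y axes, from 0) in the 2 clusters of L2/3 IT-like nuclei at resolution 2; bars are means and error bars SD over 4 libraries, points are libraries. Ntf3 is at 66.5 CPM in the Glis3/Otof and 15.3 CPM in the Cd200r1/Pde7b cluster, and Bdnf at 32.1 and 95.7 CPM.

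Ntrk2 was broad, present in every named neuron type and in astrocyte-like nuclei. Pvalb-like neurons had 1317.5 and 1341 CPM under METH and 1307 and 1309.5 under saline, the highest mean in this clustering at 1319 ± 15.6. In each of the 4 other clusterings a Lamp5-like cluster was named and was highest instead, at 1548 to 1617 CPM. L5 ET-like neurons (1310.4 ± 96.9), the Hgf/Col8a1 cluster (1306 ± 112) and Sst-like neurons (1279 ± 44.9) overlapped it. L2/3 IT-like neurons were lower, at 982 ± 111 CPM, and L5/6 NP-like neurons lower still, at 783 ± 42.2, with a highest library of 828 CPM against a lowest of 830.2 CPM in L2/3 IT-like neurons. Astrocyte-like nuclei held 1065 ± 66.7 CPM, 93.6% of the excitatory level, and 70.9% of them had a UMI at median depths of 918 to 1721. OPC-like nuclei held 489.8 ± 38.7 CPM. Differentiating oligodendrocyte-like nuclei had 102 ± 28.1, oligodendrocyte-like 79.3 ± 40.7 and microglia-like nuclei 89.3 ± 19.8 CPM; the last 2 are 6.97% and 7.84% of the excitatory level, within the range of the excitatory markers in those nuclei.

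Within the Adarb2/Pde11a interneurons the 2 Trk receptors ran in opposite directions at resolution 2. The 566 nuclei named Lamp5-like, a class that includes neurogliaform interneurons, held 1617 CPM of Ntrk2 and 335 CPM of Ntrk3. The 1138 nuclei led by Vip and Adarb2 held 1028 CPM of Ntrk2 and 841 CPM of Ntrk3. Ntrk2 was thus 1.57 times higher in the Lamp5-like and Ntrk3 2.51 times higher in the Vip-led nuclei, in 4 of 4 libraries each and without overlap.

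Ntrk3 separated neuron types more sharply than Ntrk2. It was highest in L2/3 IT-like neurons, with 1609.6 and 1577 CPM under METH and 1526 and 1584 under saline (1574 ± 35.0). This is also the type with the highest Ntf3 among neurons. L5 ET-like (1297 ± 97.3) and Pvalb-like neurons (1239.7 ± 105) came next and overlapped each other, below L2/3 IT-like in every library. L4/5 IT-like neurons had 483 ± 17.7 CPM, lower than L2/3 IT-like by a ratio of 3.26. Sst-like neurons had 338 ± 34.5. L5/6 NP-like neurons had 37.4 and 38.5 CPM under METH and 50.1 and 29.9 under saline, 38.9 ± 8.34, and 9.51% of them had a UMI against 97.3% of L2/3 IT-like neurons; the ratio of levels was 40.4. This low level is below that of oligodendrocyte-like nuclei (70.2 ± 27.3), with overlap.

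In the oligodendrocyte lineage the Trk receptors and Sort1 were opposed. OPC-like nuclei held 878 ± 35.7 CPM of Ntrk3, 12.5 times the oligodendrocyte-like level, and 489.8 CPM of Ntrk2, 6.18 times that level. Sort1 was at 39.1 ± 21.2 CPM in OPC-like, 67.8 ± 28.6 in differentiating and 299.9 ± 24.8 in oligodendrocyte-like nuclei, 7.68 times the OPC-like level. The ranges of Sort1 in OPC-like and differentiating nuclei overlapped, and those in oligodendrocyte-like nuclei lay above both. The differentiating group was small, with 257 nuclei in all and 34 Sort1 UMIs.

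Among neurons Sort1 had its highest mean in the type with the lowest Ntrk3, but other types did not follow an inverse order. L5 ET-like neurons were high in both Ntrk3 (1297 CPM) and Sort1, and Sst-like neurons were low in both Ntrk3 (338 CPM) and Sort1. L5/6 NP-like neurons had 257 and 359 CPM under METH and 276 and 299.9 under saline (298 ± 44.4), overlapping oligodendrocyte-like and microglia-like nuclei (257 ± 58.4). L6 CT-like neurons followed with 242 ± 15.4 and L5 ET-like with 222 ± 32.3 CPM, the latter overlapping L5/6 NP-like neurons. Interneurons were lower: 142 ± 9.94 in Pvalb-like, 109.7 ± 10.3 in the Adarb2/Pde11a cluster and 91.9 ± 16.9 CPM in Sst-like neurons. Astrocyte-like nuclei had 137 ± 12.2 CPM.

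Ngfr was close to undetected. All 39127 nuclei held 10 Ngfr UMIs, 1 and 2 in METH and 1 and 6 in saline, of which 4 were in L6 CT-like and 2 in L5/6 NP-like neurons. The 4463 inhibitory nuclei held 0, which allows up to 0.0672% of nuclei with a UMI, and the 4027 astrocyte-like nuclei held 0, which allows up to 0.0745%. It passed the count filter in no type and was not tested.

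The genes most alike in pattern were ranked by Pearson's r of mean log2(CPM + 1) over 20 nucleus types, among 10703 genes with at least 20 CPM in their highest type; the types share libraries and differ in depth, so r is a description. For Bdnf these were Rtn4rl2, a Nogo receptor family member (r = 0.922), Itpka, an inositol trisphosphate kinase of dendritic spines (0.904), and Hace1, a ubiquitin ligase (0.893). For Ntf3 they were Palmd (0.786), Gipc2 (0.708) and Col5a2 (0.705), of which Palmd was highest in endothelial-like and Col5a2 in fibroblast-like nuclei. For Ntrk2 they were Plcb1, a phospholipase C (0.957), Atxn1 (0.954) and the ephrin receptor Epha5 (0.950). For Ntrk3 they were Cit (0.814), Abi2 (0.787) and the diacylglycerol kinase Dgkb (0.778). For Sort1 they were Mtmr1, Sh3bgrl2 and Jade2 at 0.754 to 0.70. No ranking was made for Ngfr with its 10 UMIs.

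Other ligands and receptors of the family filled different places. Ntf4, which encodes another TrkB ligand, had 2 UMIs in all nuclei. The sortilin relatives had sites of their own: Sorcs1 was highest in L5 ET-like neurons (2392 ± 86.9 CPM), as was Sorcs2 (319 ± 13.4), and Sorcs3 in the Adarb2/Pde11a interneurons (962 ± 40.8). Cpe, a carboxypeptidase that sorts proBDNF, was highest in astrocyte-like nuclei (1582 ± 78.9), Cadps2, a factor for BDNF vesicle release, in L5 ET-like neurons (1114 ± 46.8), and Plat, the plasminogen activator that helps cut proBDNF outside the cell, in endothelial-like nuclei (92.2 ± 37.7).

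METH was compared with saline on UMIs summed per library in 18 types, among them all excitatory and all inhibitory nuclei, whose nuclei also stand in the subtypes. A gene was called at an adjusted p under 0.05 by edgeR's quasi-likelihood test with Benjamini-Hochberg adjustment over all genes tested in a type. Of 68 tests of these genes 1 was called: Ntrk2 was higher in METH in L4/5 IT-like neurons. Few genes of any kind were called. In L4/5 IT-like neurons 5 of 10903 were, or 0.0459%, and 0.0367% were called higher in METH. The share was 0.0133% in all excitatory and 0.0169% in all inhibitory nuclei. It was 0.00796% in L2/3 IT-like, 0.00948% in L5 ET-like, 0.0621% in L5/6 NP-like and 0.00936% in L6 CT-like neurons. In the Galnt14/Adamts3, Hgf/Col8a1 and Il1rapl2/Scube1 clusters it was 0.0092%, 0.00885% and 0.0264%. Among interneurons it was 0.0315% in Pvalb-like, 0.0108% in Sst-like and 0.0204% in the Adarb2/Pde11a cluster. It was 0.0409% in OPC-like, 0.00991% in astrocyte-like and 0% in oligodendrocyte-like, microglia-like and endothelial-like nuclei, where edgeR called 0 genes, with 295, 247 and 28 at an unadjusted p under 0.05, and DESeq2 called 1, 0 and 0.

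In L4/5 IT-like neurons Ntrk2 stood at 1424 and 1327 CPM in METH replicates 1 and 2 and at 1012 and 1188 CPM in saline replicates 1 and 2. The lower METH library exceeded the higher saline library. The log2 fold change was 0.34 ± 0.07 (SE), a ratio of 1.27, with an adjusted p of 0.0321 by edgeR's quasi-likelihood test. The call was lost, with the direction kept, in 6 of the other settings: adjusted p was 1.00 with DESeq2, 0.0510 with edgeR's RLE factors, 0.0592 without robust estimation, 0.176 with doublets kept, 0.329 without METH replicate 1 and 0.420 without saline replicate 1. Without saline replicate 1 the log2 value was 0.23 ± 0.07, and without saline replicate 2 it was 0.48 ± 0.07. A fit with a library left out has a single library in that group, whose spread it cannot measure.

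Saline replicate 1, the lowest Ntrk2 value, was also the shallowest, with a median of 2276 UMIs per L4/5 IT-like nucleus against 4726 to 5691 in the others. Limited to nuclei of at least 1000 UMIs and averaged per nucleus, the levels were 1397 and 1311 CPM under METH and 1012 and 1151 under saline, still without overlap. Thinned to 1000 UMIs, 69.8% and 69.8% of METH nuclei and 60.8% and 66.0% of saline nuclei had a Ntrk2 UMI, against 96.0%, 98.2%, 82.8% and 98.0% as counted. Astrocytes also hold Ntrk2. The 8 astrocyte markers, all detected in these neurons, summed to 38.8 and 48.3 CPM under METH and 51.7 and 24.8 CPM under saline. The part of astrocyte RNA in the Ntrk2 values was not tested.

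**Figure D3:**
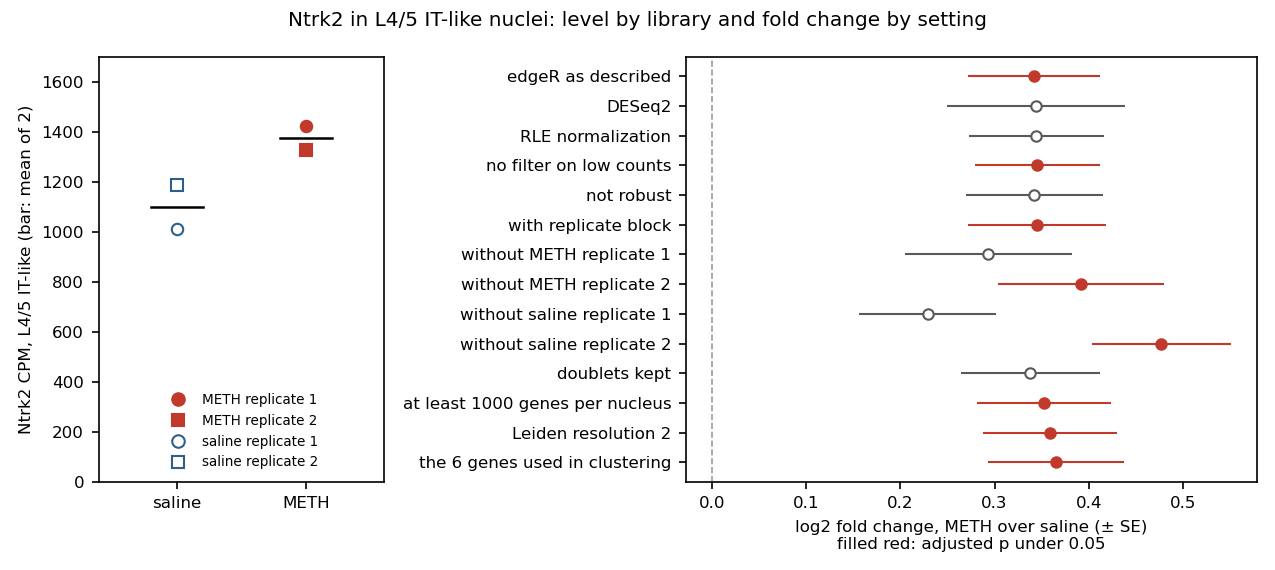
Left, Ntrk2 CPM in L4/5 IT-like nuclei per library (points) with the mean of each group (bars). Right, its log2 fold change, METH over saline, with SE under each setting; filled red points have an adjusted p under 0.05, and all values are above 0, from 0.23 to 0.48.

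In the other types Ntrk2 also tended to be higher in METH, without a call. Its log2 fold change was above 0 in 16 of 18 types, and the 2 groups did not overlap, with METH higher, in 13 of 18; over all genes and types this was so for 14.6% of tests, and the reverse for 17.8%. The types share libraries, and all excitatory and all inhibitory nuclei hold the nuclei of their subtypes, so the 13 are not independent. In all excitatory nuclei Ntrk2 had 1270.1 and 1157 CPM under METH and 989 and 1136 under saline, a log2 fold change of 0.22 ± 0.08. The values were 0.23 ± 0.08 in L2/3 IT-like, 0.27 ± 0.09 in L6 CT-like neurons, 0.19 ± 0.07 in the Hgf/Col8a1 and 0.19 ± 0.08 in the Galnt14/Adamts3 cluster, with adjusted p of 0.907 to 0.999 by edgeR. These values moved with the saline library used. With saline replicate 1 left out they were 0.10 in L2/3 IT-like and 0.16 in L6 CT-like neurons, without a call (adjusted p = 0.999 and 1.00 by edgeR). With saline replicate 2 left out they were 0.36 and 0.40 and were called (adjusted p = 9.58e-04 and 0.00686 by edgeR), but the saline arm is then replicate 1 alone, the shallowest library, and is assumed to vary like the METH arm. In Pvalb-like neurons the value was 0.01 ± 0.07 and in Sst-like neurons 0.03 ± 0.07. Whether excitatory and inhibitory neurons differ in this was not tested. Astrocyte-like nuclei had 1099 and 1134 CPM under METH and 981 and 1048 under saline, with a log2 value of 0.14 ± 0.10 (adjusted p = 1.00 by edgeR).

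**Figure D4:**
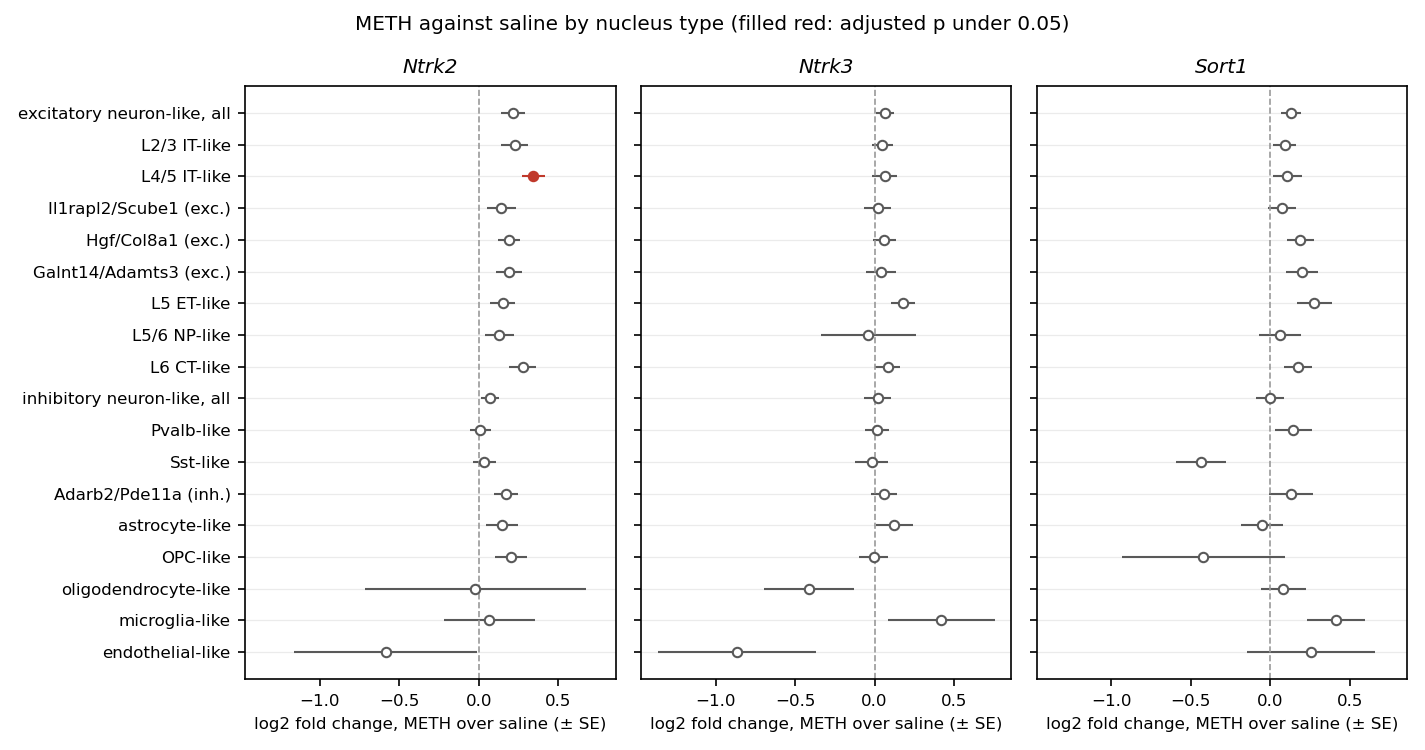
Log2 fold change, METH over saline, of Ntrk2, Ntrk3 and Sort1 (x axis, points with SE) in 18 nucleus types (rows); the filled red point is the call at an adjusted p under 0.05. Ntrk2 lies above 0 in every excitatory type, and Ntrk3 close to 0 in most neurons.

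The ligands did not pass the test in any type. Bdnf in all excitatory nuclei was 55.7 and 55.1 CPM under METH and 55.7 and 53.7 under saline, with a log2 fold change of 0.04 ± 0.07 (adjusted p = 0.998 by edgeR). In its highest group, the Galnt14/Adamts3 cluster, the value was −0.09 ± 0.13, and in L2/3 IT-like neurons −0.12 ± 0.18. Ntf3 in L2/3 IT-like neurons had a log2 fold change of −0.13 ± 0.11 and in Pvalb-like neurons of 0.37 ± 0.38. The libraries overlapped in the first, and METH stood above saline without overlap in the second, where Ntf3 rested on 67 UMIs. Of all genes tested in Pvalb-like neurons 18.2% were higher in METH without overlap. Over the 10 types in which Bdnf was tested its values ran from −0.26 to 0.58.

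Ntrk3 and Sort1 did not pass either. Ntrk3 in all excitatory nuclei was 966 and 983 CPM under METH and 918 and 974 under saline (log2 0.07 ± 0.06), and L5 ET-like neurons had its smallest adjusted p, 0.946 by edgeR, at 0.18 ± 0.07. Sort1 in all excitatory nuclei was 209 and 203 CPM under METH and 185 and 197 under saline (log2 0.13 ± 0.06). Its value was above 0 in 8 of 8 excitatory types and clusters, from 0.06 to 0.28, and the libraries did not overlap in 6 of them. Over all genes 12.9% to 17.3% were higher in METH without overlap in these 8, which share the same 4 libraries, so the 8 are not independent. In Sst-like neurons it went the other way, 82.7 and 73.0 CPM under METH against 103 and 109 under saline, with a log2 value of −0.44 ± 0.16. In microglia-like nuclei it was 0.41 ± 0.18 and in oligodendrocyte-like nuclei 0.08 ± 0.14. The adjusted p was 1.00 in these 3 types by edgeR.

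Downstream, 6 lists held 103 other genes of neurotrophin processing, receptors, Trk adaptors, the kinase branches, p75 adaptors and Bdnf regulators and targets. edgeR called 0 of them in any of the 18 types and DESeq2 likewise 0. At an unadjusted p under 0.05 there were 65 of 1451 tests of list genes, or 4.48%, against 4.28% of all tests. By type the share of list genes ran from 0% in microglia-like and endothelial-like nuclei to 10.3% in L4/5 IT-like neurons. L5 ET-like neurons were next at 8.33%. The L4/5 IT-like neurons, singled out after their values were seen, had 9 of 87, against 5.60% of all genes. The 2 with the smallest p there were the Trk adaptor Shc3, at 228 and 210.1 CPM under METH and 154 and 195 under saline (log2 0.35 ± 0.10, adjusted p = 0.240 by edgeR), and Irs2, an insulin receptor substrate, at 28.9 and 29.9 CPM under METH and 17.1 and 20.5 under saline (0.67 ± 0.20, adjusted p = 0.396 by edgeR). Both were also the first 2 in all excitatory nuclei, with Irs2 at 0.30 ± 0.09 and Shc3 at 0.23 ± 0.08.

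Median log2 values of the lists ran, over the lists and types, from −0.19 (6 other receptors in L6 CT-like) to 0.29 (4 other receptors in Pvalb-like neurons), where the medians of all genes were 0.00. In all excitatory nuclei the 10 tested genes of processing had a median log2 value of 0.09 and the 6 other receptors −0.01. The 20 Trk adaptors had 0.09, the 27 tested genes of the kinase branches 0.02 and the 13 p75 adaptors 0.00. The 18 tested Bdnf regulators and targets had 0.08, and the median of all genes was 0.00. Of these 18 genes 15 were above 0, against 50.2% of all genes. By excitatory type this list ran from 4 of 16 above 0 in the Il1rapl2/Scube1 cluster to 16 of 18 in the Hgf/Col8a1 cluster. In inhibitory nuclei Lrig1, a negative regulator of receptor tyrosine kinases, was at 0.86 ± 0.31. In astrocyte-like nuclei Pdpk1, the kinase that activates Akt, was at −0.36 ± 0.15 and the Nogo receptor Rtn4r at −0.72 ± 0.34. In oligodendrocyte-like nuclei the Rap activator Rapgef1 was at 0.86 ± 0.30 and Araf at 0.44 ± 0.23. In OPC-like nuclei Pik3r1, a PI3 kinase subunit, was at 0.26 ± 0.10 and Irs1 at −0.47 ± 0.20. The adjusted p of these 7 ran from 0.983 to 1.00 by edgeR.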

How the data were processed

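The deposited files hold UMI counts per gene and barcode for 4 libraries of nuclei, from 10x 3' chemistry. Cell Ranger 7.0.0 produced the deposited counts, per the file headers and also per the notes on processing that the submitters gave. These notes name a human build while the gene identifiers are rat. No source used here gives the rat build, and coordinates are printed only for RefSeq promoters. The members and lists were chosen with earlier results of these data known, and the rules for naming clusters were set after seeing the data.

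Barcodes with under 500 genes or over 5% mitochondrial UMIs were left out. The highest Scrublet scores, 0.8% per 1000 barcodes, were removed as doublets. Scanpy 1.11.5 selected 3000 variable genes, none of the 6 among them, and clustered a graph of 20 neighbours over 30 components (Leiden resolution 1, seed 1; 25 clusters). A cluster was named by the marker list with the highest score, if this was at least 0.4, the next unrelated list at most 0.6 of it, at least 3 markers were detected in 10% of nuclei, and its 10 leading genes held no more markers of another class. Subtypes also needed a marker of their own there.

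Counts were summed per library in each type with at least 50 nuclei in every library and tested with edgeR 4.0.16 (two-sided quasi-likelihood F test, robust, TMM, filterByExpr, no replicate block) under R 4.3.3. P-values were adjusted by Benjamini-Hochberg over the genes tested in a type; the SE is the log2 fold change over the square root of F. The fit was checked on simulated counts. Named genes are the 6 members in every type, from the lists any gene called or, failing that, the 2 of smallest p in each of 5 classes (L4/5 IT-like was added after its values were seen; 1 gene of the inhibitory nuclei is not reported here), and for each member the 3 most alike in pattern. The levels of the other ligands, receptors and processing factors were also chosen after they were seen. Alternatives were DESeq2 1.42.0, RLE factors, no count filter, no robust estimation, a replicate block, each library left out, doublets kept, at least 1000 genes, resolution 2, the 6 genes added for clustering, and thinning.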

Additional observations from a re-analysis of the deposited data

How the results depend on the processing

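With saline replicate 1 or METH replicate 1 left out no member was called, and over the 4 omissions of a library the count ran from 0 to 8, the 8 without saline replicate 2. It was 0 with DESeq2, RLE factors, no robust estimation or doublets kept. Each omission leaves a single library in a group, so the spread of that group is not measured in these fits. All counts of calls in this section are of pairs of a gene and a type, summed over the tested types. A gene called in several types therefore counts once in each, as Cst3 did in most types. List genes called numbered 4 without a count filter and 1 to 19 with a library left out; all genes called, 33 in all, numbered 14 with DESeq2, 156 without a filter and 162 to 1253 with a library left out. With the replicate block list genes called numbered 4 and all genes 176, Ntrk2 in L4/5 IT-like neurons stayed called (log2 0.35), and Ntrk2 turned to -0.0068 in microglia-like and 0.0095 in oligodendrocyte-like nuclei; replicate numbers do not pair the libraries by the labels, and deviations of same-numbered libraries correlated at -0.042 to 0.131.

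Ntrk2 in L4/5 IT-like neurons lost its call at a log2 value of 0.34 with DESeq2, 0.34 with RLE factors, 0.34 without robust estimation and 0.34 with doublets kept, and ran from 0.23 to 0.48 with a library left out; the cause was not tested. Elsewhere Ntrk2 turned in microglia-like nuclei with DESeq2 (-0.032), at least 1000 genes (-0.21), resolution 2 (-0.34), and without METH replicate 1 (-0.049; -0.41 to 0.29 over the 4 omissions). In oligodendrocyte-like nuclei it turned to 0.023 without a filter, 0.51 with doublets kept and 0.49 with the 6 genes added to the clustering (-0.83 to 0.95). With a library left out the values that turned ran from -0.00024 to 0.025 for Ntrk2 in Pvalb-like, -0.024 to 0.086 in Sst-like and -1.15 to 0.23 in endothelial-like nuclei, -0.28 to 0.13 for Bdnf in the Galnt14/Adamts3 cluster, -0.39 to 0.13 (and 0.043) in L2/3 IT-like neurons, -0.38 to 0.17 for Ntf3 in excitatory and -0.030 to 0.20 for Sort1 in oligodendrocyte-like nuclei.

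Levels moved by over 1 SD for Ntf3 (49.7 CPM) and Ntrk3 (1630.5) in L2/3 IT-like neurons with the 6 genes added to the clustering, for Ntrk2 in Pvalb-like neurons with doublets kept (1301) or thinned nuclei (1334), and for Sort1 in oligodendrocyte-like nuclei at 1000 genes (254). At 1000 genes the highest type became endothelial-like for Ntf3 (50.1) and L5/6 NP-like for Sort1 (294). Of 575 log2 values in other settings over 45 results 545 kept direction and call. Since 1 of the 68 tests of the 6 genes was called, keeping the call mostly meant staying uncalled. Ngfr, the vascular values and Ntf3 outside L2/3 IT-like and Pvalb-like neurons rest on few UMIs and are limited by depth.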
